A study of Mus musculus with 96 samples.

Results

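The STAT3 peaks on H3K4me3 are the intervals of the STAT3 ChIP-seq peak list of Rybp+/+ mouse embryonic stem cells (ESCs) that share at least 1 bp with an interval of the H3K4me3 peak list of the same genotype. This rule took 1941 of 2363 STAT3 peaks (82.1%, 95% Wilson interval 80.5 to 83.6). The other 422 STAT3 peaks lay away from H3K4me3. Since the STAT3 and H3K4me3 values of Rybp+/+ ESCs chose the members, those values are given below as descriptions only. The H3K4me3 list of Rybp-/- ESCs, which the rule did not use, overlapped 1930 of the 1941 members.

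Rybp+/+ and Rybp-/- ESCs were of the Rybp-floxed line R7.15, and the Rybp-/- cells had received 5 µM 4-hydroxytamoxifen (4-OHT) for 4 days. STAT3 was profiled in 1 library of each of these genotypes, so a difference between them has no replicate check. The further STAT3 lists came from line R1 carrying a doxycycline (DOX)-induced Rybp_Stat3 integration, named Tet.Rybp.Stat3, without DOX (DOX-) and with DOX (DOX+), each list made from 2 replicates. H3K4me3, H3K27ac and WDR5 were profiled in R7.15 cells of both genotypes, with 2 replicates behind each list, and RING1B in R1 cells with an empty vector (shEV) or a Stat3 knockdown (shStat3), with 1 library each, and in the Tet.Rybp.Stat3 line. RNA-seq compared Rybp-/- with Rybp+/+ ESCs, shRybp with shEV R1 ESCs, and the libraries labelled DOX with the libraries labelled NTC of a line named rTRS that carries the same integration, with 2 libraries in each group. All cells were grown in serum with leukaemia inhibitory factor (LIF), the ligand that activates STAT3, in the control groups too.

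STAT3 is the transcription factor that LIF activates through its receptor and the Janus kinases, and it sustains the undifferentiated state of mouse ESCs. It binds as a dimer to a palindrome with TTC on one side and GAA on the other. H3K4me3 is a histone mark of gene starts. WDR5 is a shared subunit of the complexes that write it, H3K27ac marks active promoters and enhancers, and RING1B is the ubiquitin ligase of Polycomb repressive complex 1, of which RYBP is a subunit.

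The STAT palindrome was present in few of the members, but it was present at several of the strongest and best known, and these sites are printed to show what the capitals TTCNNNGAA look like in place. Each is the copy nearest to the peak's summit, taken from mouse build mm9 (NCBIM37), plus strand, with 10 bases on either side. The sites at Junb, Rps6ka1, Ier2, Ubb, Icam1 and Socs2 match the full palindrome TTCCNGGAA. The printed sites at Bcl3, Irf1, Bcl6 and Socs3 match TTCNNNGAA only. The Socs3 peak also held 1 copy of the full palindrome, farther from its summit than the printed site. The Lmna peak, for which no site is printed, held 1 copy of the full palindrome too. Neither copy lay in the summit window in which the shares of the palindrome below were counted.
Junb, chr8:87500463-87500491: ggggaggggaTTCCCGGAAtctgcccgga
Rps6ka1, chr4:133370026-133370054: ctcggagctcTTCCTGGAAactcccgcct
Ier2, chr8:87179687-87179715: cctccccctcTTCCTGGAAgaccctccca
Ubb, chr11:62365211-62365239: gcaacgggccTTCCGGGAAgagtgggcct
Icam1, chr9:20820332-20820360: ggcgcgaggtTTCCCGGAAagtggccccg
Socs2, chr10:94879528-94879556: ggaggccgctTTCCAGGAActttccagga
Bcl3, chr7:20401756-20401784: agcgaatgatTTCAGAGAAaccgtccagg
Irf1, chr11:53583416-53583444: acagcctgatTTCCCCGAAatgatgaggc
Bcl6, chr16:23988729-23988757: cagagctcaaTTCTCGGAAtttgagctgc
Socs3, chr11:117830816-117830844: cccccctcccTTCTAAGAAggctggtttc

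Most members had no STAT palindrome, and many had a GC-rich summit. The windows of 120 bases centred on the summit at 3 genes are printed to show composition, chosen after their values were seen: that of Stat3, the member of highest fold enrichment, and those of Rybp and Pou5f1, the depleted gene and the gene of the pluripotency factor OCT4. Capitals mark GGGCGG on either strand, the GC box of SP-family factors. The Rybp window held 3 GC boxes and 21 CpG at 80.8% GC. The Stat3 window held 0 GC boxes at 60% GC and the Pou5f1 window 0 at 54.2% GC.
Stat3, chr11:100801012-100801131: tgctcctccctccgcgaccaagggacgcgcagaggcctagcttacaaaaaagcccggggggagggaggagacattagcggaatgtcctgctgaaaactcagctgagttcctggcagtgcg
Rybp, chr6:100237097-100237216: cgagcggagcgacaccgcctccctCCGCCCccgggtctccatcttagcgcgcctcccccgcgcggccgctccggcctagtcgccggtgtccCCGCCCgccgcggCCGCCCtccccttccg
Pou5f1, chr17:35643602-35643721: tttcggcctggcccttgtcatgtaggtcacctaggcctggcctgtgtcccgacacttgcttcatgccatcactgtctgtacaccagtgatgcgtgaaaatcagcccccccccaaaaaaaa

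The members sat on gene starts. Their median width was 390 bp, and 1886 of 1941 (97.2%) lay wholly inside an H3K4me3 interval. The summit was within 1 kb of an annotated gene start in 1520 members (78.3%), elsewhere in an exon in 164, in an intron in 92 and outside genes in 165. Of the 422 peaks away from H3K4me3, 52 (12.3%) had the summit within 1 kb of a gene start. A gene start lay within 1 kb of the interval of 1545 members, and 244 members had 2 or more. These starts belonged to 1748 genes, called member genes below, of which 1567 were protein-coding (7.02% of 22337 protein-coding genes in the count tables). The fold enrichment of the members over input ran from 1.68 to 25.7 with a median of 4.18. Their median −log10 q was 4.40, and 106 members (5.46%) were below 2. At the edge of the rule, the member with the smallest overlap was a peak whose nearest protein-coding gene was Sulf2 (chr2:166041512-166042157, overlap 5 bp, fold 4.35), and the closest peak outside lay near Ap3m1 (chr14:21871067-21871463), 2 bp from an H3K4me3 interval, with a fold of 6.16.

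The H3K4me3 peaks that held a member were 1891 of 39050 (4.84%), and 49 of them held 2 or more members. They were wide and high. Their median width was 2708 bp against 963 bp for the H3K4me3 peaks without a member, and their median H3K4me3 fold enrichment 38.3 against 7.06. Across 10 width groups of equal size, the share with a member went from 0.230% in the narrowest group to 16.3% in the widest. The STAT3 summit lay a median of 148 bp from the H3K4me3 summit.

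The members of highest fold included peaks at genes that LIF and STAT3 are known to act on. STAT3 fold enrichment is given in the order Rybp+/+, Rybp-/-, Tet.Rybp.Stat3 DOX- and Tet.Rybp.Stat3 DOX+ throughout. The peak at Stat3 itself (chr11:100800449-100801389, summit 218 bp upstream of the start) was the highest in the Rybp+/+ list, at 25.7, 18.3, 27.3 and 52.9. The Bcl3 peak (chr7:20401582-20402020) had its summit in an intron, 449 bp upstream of the nearest annotated start of the gene. Bcl3 is a nuclear cofactor of NF-kappa-B, and its peak was at 17.4, 7.66, 9.36 and 12.5. Junb, a subunit of the AP-1 factor, had its peak (chr8:87500074-87500712) outside the gene, 2194 bp downstream of its start, at 16.0, 14.0, 34.8 and 40.7, and this member had the highest −log10 q of the Rybp+/+ members, 121. These 3 peaks were in every STAT3 list, and the Stat3 and Junb peaks were highest in DOX+.

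Some of the strong members were distal. A peak at chr14:106258417-106259002, outside genes and 37319 bp from the start of the nearest protein-coding gene Spry2, an inhibitor of receptor tyrosine kinase signalling, was at 20.9, 7.91, 7.95 and 23.7. Another distal peak, chr4:133369462-133370574, had Rps6ka1, a kinase of the ERK pathway, as its nearest protein-coding gene and was at 14.7, 16.0, 15.6 and 19.4. The peak near Ier2, an immediate early gene (chr8:87179569-87179970), was at 11.5, 6.31, 10.7 and 11.8. These 3 peaks were also in every STAT3 list.

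Further peaks among the 12 of highest fold lay at genes outside this pathway. Pabpc1, the cytoplasmic poly(A)-binding protein, had its peak at 11.0, 8.57, 9.81 and 12.9. The peak in an untranslated exon of Ubb, a polyubiquitin gene, was at 10.5, 6.84, 15.0 and 15.9. The Scp2 peak (chr4:107790924-107791345), at a sterol carrier gene, was at 10.2 in Rybp+/+, not listed in Rybp-/-, and at 7.47 and 8.20 in DOX- and DOX+. The Lmna peak (chr3:88313875-88314320), at the gene of lamins A and C, was at 9.42, not listed, 7.36 and 17.4. Scp2 and Lmna were thus the strongest members missing from the Rybp-/- list, followed by peaks at chr17:36385763-36386083 (nearest protein-coding gene Rpp21), Lrrc68 and Grm8, at 8.96, 8.45 and 8.30, which were also missing from DOX- and were at 7.47, 9.38 and 11.8 in DOX+.

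Of 41 genes of a list of LIF and STAT3 pathway genes, 40 were in the count tables, 39 had an H3K4me3 peak within 1 kb of a start and 14 were member genes. Over all 17610 genes with an H3K4me3 peak within 1 kb of a start, 9.93% were member genes. Among negative regulators in the list, Socs3 and Socs2 were member genes, and Socs1, Cish, Pias1 and Pias3 were not. Socs3, the feedback inhibitor of the LIF receptor complex, had its peak (chr11:117830410-117830919) at 6.13, 5.69, 10.9 and 14.3. Socs2 (chr10:94879345-94879681), of the same family, was at 6.15, 6.17, 9.01 and 8.95. Lifr, the LIF receptor subunit itself (chr15:7079121-7079485), was at 3.68 in Rybp+/+ and 8.26 in DOX+ and was not listed in the other 2. The Socs3 and Socs2 peaks were in all 4 lists, and the Lifr peak was in 2.

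Transcription factor genes of the list were mixed. Irf1, an interferon response factor (chr11:53583144-53583674), was at 8.60, 10.4, 11.7 and 16.2. Bcl6, a transcriptional repressor (chr16:23988573-23989049), was at 6.44 in Rybp+/+ and 10.9 in DOX+ only, and so was Fos (chr12:86814323-86814625), at 5.34 and 12.9. Klf4 (chr4:55543155-55543786), a factor of naive pluripotency, was at 4.25, 9.23, not listed and 4.50. Klf2 had 2 members. The one 182 bp upstream of its start (chr8:74842608-74843046) was at 5.02 in Rybp+/+ and 3.88 in DOX+. The one in its exon (chr8:74843811-74844142) was at 3.45, 5.04, 4.09 and 3.88. Their DOX+ fold and −log10 q (18.7) were identical, so they are not counted as separate DOX+ peaks. Sall4 (chr2:168591460-168591791) was at 5.45, 4.74, not listed and 6.00.

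The remaining member genes of the list were Icam1, a cell adhesion molecule (chr9:20820195-20820581; 6.41, 5.79, 10.2 and 19.0), Mcl1, an inhibitor of apoptosis (chr3:95462462-95463008; 2.82, 3.79, 6.11 and 9.25), and the kinase Pim1 (chr17:29627741-29628151; 4.65, not listed, 8.58 and 5.71). Of a list of 26 pluripotency genes, 3 were member genes and all 26 had an H3K4me3 peak within 1 kb, while 9.93% of all genes with such a peak were member genes. The Pou5f1 peak (chr17:35643428-35643779, in an intron) was at 5.73 in Rybp+/+ and in no other STAT3 list. The Rybp peak (chr6:100236999-100237314, in an intron) was at 4.76 in Rybp+/+ and 3.45 in Rybp-/-, and in neither Tet.Rybp.Stat3 list. Rcor2, a subunit of the CoREST corepressor (chr19:7342289-7343112), was at 4.51, 4.21, not listed and 6.39.

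**Figure D1:**
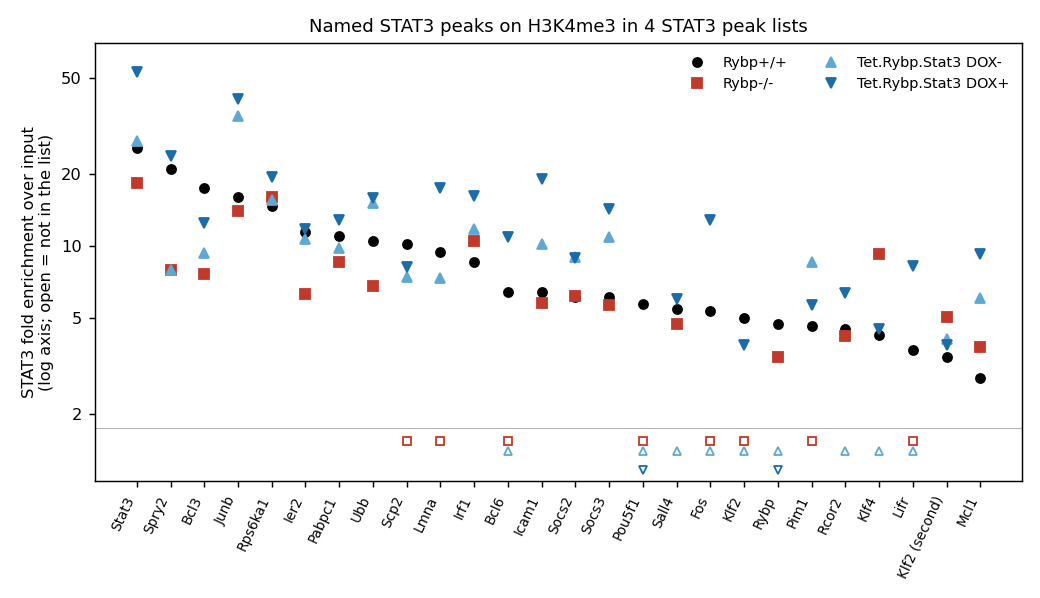
STAT3 fold enrichment over input (log axis) of named members, ordered along the horizontal axis by their value in Rybp+/+ ESCs; each symbol is a peak list, and open symbols at the bottom mark lists without a peak there. The Stat3 peak is at 25.7 in Rybp+/+ and 52.9 in DOX+, and Pou5f1 is in none of the other 3 lists.

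Few members recurred in the Rybp-/- and DOX- lists, and nearly all in the DOX+ list. Of the 1941 members, 425 (21.9%, 95% Wilson interval 20.1 to 23.8) overlapped a STAT3 peak of Rybp-/- ESCs, against 17 of the 422 peaks away from H3K4me3 (4.03%, 2.53 to 6.36). The difference was 17.9 percentage points (95% Newcombe interval 14.9 to 20.3). In DOX-, 477 members (24.6%, 22.7 to 26.5) recurred, against 1 of the 422 others (0.237%). In DOX+, 1824 members (94.0%, 92.8 to 94.9) recurred, against 30 of the others (7.11%, 5.02 to 9.97). These intervals cover counting error over peaks only, and peaks are not replicates of a condition.

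List length moved with these shares. The lists held 2363 (Rybp+/+), 1917 (Rybp-/-), 2816 (DOX-) and 30663 (DOX+) peaks. When the 1917 peaks of highest fold were taken from each list, the Rybp+/+ list included, 1516 members were left. Of these 1516, 309 (20.4%) recurred in Rybp-/-, 261 (17.2%) in DOX- and 313 (20.6%) in DOX+. The share in DOX+ was then near those of the other 2, though over fewer members than the 94.0% of the whole lists. Taking only peaks of −log10 q of at least 5 in every list left 748 members and gave 13.6% for Rybp-/-, 14.0% for DOX- and 93.4% for DOX+. The share in the whole DOX+ list was also high at H3K4me3 peaks in general: 95.5% of those with a member and 78.9% of those without one, at equal widths, overlapped a DOX+ peak. The same values were 24.7% and 7.29% for the Rybp-/- list and 29.3% and 10.8% for DOX-.

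Counted together, 107 members were in none of the other 3 lists, 1116 in 1, 544 in 2 and 174 in all 3. Of the 1116, 1109 were in the DOX+ list only. Members in none had a median Rybp+/+ fold of 4.92, and members in all 3 of 4.21. Across the range, recurrence did not rise steadily with the Rybp+/+ fold. In 10 groups of rising fold, the share in the Rybp-/- list was 33.3% in the lowest group, 16.4% in the fifth and 25.8% in the highest. In DOX- it was 35.4% in the lowest group, 11.5% in the eighth and 25.8% in the highest, and in DOX+ 99.0%, 87.5% and 89.7%. By −log10 q, the first 9 groups were, for the Rybp-/- list, between 12.4% and 23.4%, and the highest group was at 36.1% (29.7 to 43.1). At the top, 13 of the 20 members of highest fold were in Rybp-/-, 15 in DOX- and 20 in DOX+, and of the 100 highest 30, 31 and 91 were. The 425 members found in both genotypes had median folds of 4.09 in Rybp+/+ and 4.11 in Rybp-/-. The depth of the STAT3 libraries is unknown, and the peak names of the deposited lists say that reads had been sampled, so absence from a list does not show absence of STAT3.

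**Figure D2:**
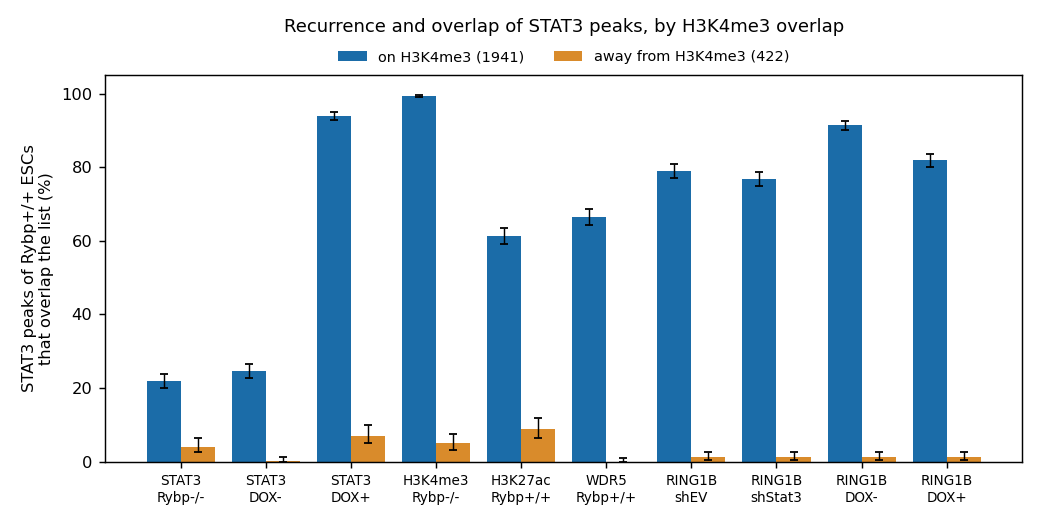
Percentage of the 1941 STAT3 peaks on H3K4me3 (blue) and of the 422 away from it (orange) that overlap each peak list named on the horizontal axis; bars start at 0 and error bars are 95% Wilson intervals (counting error only). Members lie at 21.9% for Rybp-/- STAT3, 24.6% for DOX- and 94.0% for DOX+, and the peaks away from H3K4me3 at 8.77% or less in every list shown.

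Other marks separated the members from the STAT3 peaks away from H3K4me3. H3K27ac of Rybp+/+ ESCs overlapped 1191 members (61.4%, 59.2 to 63.5) and 8.77% of the others. WDR5 overlapped 1291 members (66.5%, 64.4 to 68.6) and 0 of 422 others, which allows a share of up to 0.711%. RING1B of shEV cells overlapped 1534 members (79.0%, 77.2 to 80.8) and 1.18% of the others. The RING1B list is from R1 cells, so the overlap crosses cell lines. Among H3K4me3 peaks with a member, 82.1% were on RING1B, 72.3% on WDR5 and 64.9% on H3K27ac. Among those without a member, at equal widths, these shares were 62.2%, 63.3% and 76.7%, and the differences were not tested.

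By these marks the members fell into a class with both RING1B and H3K27ac (858 members), a class with RING1B and no H3K27ac (676), a class with H3K27ac and no RING1B (333) and 74 with neither. WDR5 was at 87.9% of the first class, 41.7% of the second, 76.3% of the third and 1.35% of the last. Genes at the second class were lowly expressed. In Rybp+/+ ESCs the median level of its 513 member genes was 0.147 RPKM (read counts scaled to exon length and library size), against 6.16 RPKM for the 890 of the first class and 12.7 RPKM for the 346 of the third. Stat3, Socs2, Irf1, Klf2 and Rybp were in the first class, Grm8 in the second, and Bcl3, Junb, Socs3, Klf4, Lifr, Icam1, Mcl1 and Pou5f1 in the third. The classes rest on the shEV list alone. Of the 333 members of the third class, 251 (75.4%) overlapped a RING1B peak of at least 1 of the other 3 RING1B lists, most of them of DOX- (247). Junb, Socs3 and Klf4 had a RING1B peak in all 3 other lists, with folds of 10.5, 30.4 and 22.2 in shStat3, and Lifr and Icam1 had one in shStat3 and DOX-.

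Recurrence differed by mark in some lists. Of members on WDR5, 26.6% were in the Rybp-/- STAT3 list, against 12.6% of members off WDR5, a difference of 14.0 percentage points (10.3 to 17.4), and 13.8 points when fold groups were weighted equally. In DOX- these shares were 32.9% and 8.00%. For H3K27ac they were 24.4% and 17.9% in Rybp-/- and 31.9% and 12.9% in DOX-, and 94.5% and 93.1% in DOX+ (interval of the difference -0.682 to 3.82 points). For RING1B they were 22.6% and 19.2% in Rybp-/-, with an interval of the difference that reached from -1.12 to 7.59 points, 24.8% and 23.8% in DOX- (-3.91 to 5.41, and a difference of -1.50 points at equal fold groups), and 98.6% against 76.4% in DOX+. Between the genotypes, 11 members lost the H3K4me3 peak in Rybp-/-, which was 0.567% of them, against 14.5% of all H3K4me3 peaks. H3K4me3 peaks on members were wider and higher than the others, so the shares were also taken at equal width and equal fold (10 groups of peaks by each measure). Counted by H3K4me3 peak, 8 of the 1891 that overlapped a member (0.423%) overlapped no Rybp-/- peak, against 15.2% of the other H3K4me3 peaks, 1.09% of them at equal width and 1.21% at equal fold. H3K27ac was in Rybp+/+ only at 24 members and in Rybp-/- only at 132, which was 2.02% and 10.2% of the members with the mark in that genotype, against 28.7% and 29.3% of all H3K27ac peaks. Counted by H3K27ac peak, 1.60% of those on members were in Rybp+/+ only, against 7.72% of the others at equal fold and 11.0% at equal width, and 9.31% were in Rybp-/- only, against 9.08% and 11.9%. WDR5 was in Rybp+/+ only at 143 members (11.1%, all WDR5 peaks 11.3%) and in Rybp-/- only at 157 (12.0%, all WDR5 peaks 17.7%). Counted by WDR5 peak, 10.9% of those on members were in Rybp-/- only, against 20.1% of the others at equal fold and 13.6% at equal width, and 10.4% were in Rybp+/+ only, against 11.5% and 7.97%. The Rybp-/- lists of H3K27ac and WDR5 were the longer ones, with 62669 against 57642 and 12946 against 11965 peaks.

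RING1B peaks on members were mostly kept in shStat3 cells. Of 1481 RING1B peaks of shEV cells that overlapped a member, 1370 (92.5%) overlapped a RING1B peak of shStat3 cells, against 72.6% of 12927 other RING1B peaks, a difference of 19.9 points (18.3 to 21.4). The RING1B peaks on members were higher (median fold 7.68 against 4.64), and at equal fold the other peaks were kept at 82.7%. Among the members, 133 of 1534 lost their RING1B peak in shStat3 and 92 gained one. From DOX- to DOX+ the RING1B peaks on members were kept at 89.6% and the others at 68.7%, or 86.3% at equal fold. The RING1B lists shortened from 14408 to 12017 peaks with shStat3 and from 17021 to 12864 with DOX. Each RING1B condition gave 1 list, and the part of list length in these losses was not tested.

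The members' summits were GC-rich. In 300-base windows centred on the summit, the median GC content was 72.7% at members, 53.7% at STAT3 peaks away from H3K4me3 and 57.7% at the 37159 H3K4me3 peaks without a member. The ratio of observed to expected CpG was 0.889, 0.269 and 0.505. The GC box GGGCGG, searched on both strands, was in 74.9% of member windows and in 34.8% of the H3K4me3 windows, or 70.3% at the members' GC content. GC content moved with recurrence: its median was 59.7% in members found in none of the other STAT3 lists, 71.0% with 1 list, 76.0% with 2 and 77.2% with all 3. Immunoprecipitation and sequencing also vary with GC content, and the part of this in recurrence was not tested.

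The STAT palindrome TTCCNGGAA (N any base, both strands) was in 45 of 1941 member windows (2.32%, 1.74 to 3.09), in 1.66% of the windows away from H3K4me3 and in 0.850% of the H3K4me3 windows, or 0.390% at the members' GC content. The relaxed form TTCNNNGAA, which includes the strict one, was in 4.79% of members (3.93 to 5.83), 6.87% of the peaks away from H3K4me3 and 5.88% of the H3K4me3 windows, or 2.26% at the members' GC content. The share of the relaxed form at members was thus below that of other H3K4me3 peaks as they are (difference -1.09 percentage points, -1.98 to -0.0173) and above it at equal GC content. Among the 100 members of highest fold, 14.0% had the strict form (8.53 to 22.1) and 22.0% the relaxed form (15.0 to 31.1). Among the other 1841 members, these shares were 1.68% (1.19 to 2.38) and 3.86% (3.07 to 4.84).

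The palindrome also went with recurrence. The strict form was in 0 of 107 members found in no other STAT3 list, which allows up to 2.80%, in 1.34% of members in 1, in 2.94% in 2 and in 8.05% (4.85 to 13.1) of the 174 members in all 3. In members of the Rybp-/- list it was in 4.71% (3.07 to 7.16), and in members absent from it in 1.65% (1.12 to 2.42). Where present, it lay a median of 42.0 bp from the summit in members, within 25 bp in 15 of 45. The median was 23.5 bp in the 100 of highest fold and 113 bp in the 7 windows away from H3K4me3 that held it. In H3K4me3 windows, centred on the H3K4me3 summit, it was 71.5 bp. By class, the strict form was in 3.03% of members with RING1B and H3K27ac. With RING1B and no H3K27ac its share was 0.888%, and with H3K27ac and no RING1B 3.60%. The Junb, Ier2, Rps6ka1, Ubb, Icam1 and Socs2 sites printed above, all from members in all 3 other lists, belong to this set. The Stat3 and Pou5f1 windows held neither form.

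**Figure D3:**
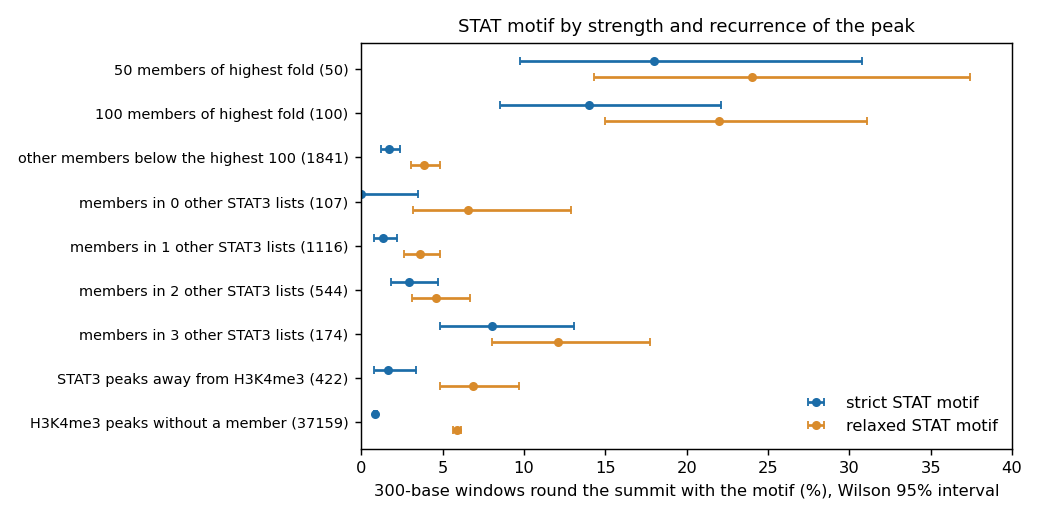
Percentage of 300-base summit windows that hold the strict (blue) or relaxed (orange) STAT palindrome, with 95% Wilson intervals, for members grouped by fold or by the number of other STAT3 lists they are in, and for 2 comparison sets; the number of windows stands in parentheses. The strict form is at 14.0% in the 100 members of highest fold, 1.68% in the other members and 0.850% in H3K4me3 peaks without a member.

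For CCAAT and TGANTCA the shares at equal GC content were close to those of the members. For the NRF1 motif, the E-box, the cAMP response element and the octamer they were lower than those of the members. The NRF1 motif GCGCNTGCG was in 6.44% of members against 2.09% of H3K4me3 windows, or 4.30% at equal GC. The ETS motif CCGGAAG, whose GGAA can overlap the STAT palindrome, was in 7.01% against 5.96%, or 6.53% at equal GC. The NFY motif CCAAT was in 11.7% against 22.9%, or 10.5% at equal GC, and the AP-1 motif TGANTCA in 2.01% against 5.14%, or 2.05%. The YY1 motif AAGATGGCG was in 1.65% against 3.28%, or 2.06%. The E-box CACGTG was in 6.54% against 5.47% (4.97% at equal GC) and the cAMP response element TGACGTCA in 0.618% against 0.318% (0.314%). The octamer ATGCAAAT was in 0.464% against 0.772% (0.188%), and the ZFP143 motif ACTACAATT in 0 of 1941 against 0.0780%. These are matches of letters and show no binding.

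The RNA-seq tables showed the member genes under loss of Rybp in both lines. Rybp, itself a member gene, was at 110 and 111 counts scaled to library size (CPM) in Rybp+/+ and 24.8 and 24.9 CPM in Rybp-/-, a log2 fold change of -2.15 (SE 0.05, n = 2 per group, adjusted p = 8.09e-27, edgeR quasi-likelihood test). In R1 it was at 85.7 and 86.3 CPM with shEV and 35.8 and 36.5 CPM with shRybp (-1.25, SE 0.06, adjusted p = 4.54e-12, edgeR). In rTRS it was at 113 and 110 CPM in NTC and 102 and 99.5 CPM in the libraries labelled DOX, and this was not called (-0.15, SE 0.07, adjusted p = 0.0762, edgeR). Rybp therefore fell where the labels say it was depleted, and it was not higher where the label says DOX. Stat3 was at 159 and 172 CPM in NTC and 191 and 188 CPM in the libraries labelled DOX (0.20, SE 0.06, adjusted p = 0.0259, edgeR), a call lost without any of 3 of the 4 libraries (adjusted p 0.0546 to 0.261). Whether the table counts reads of the integrated copies was not tested, so every direction in the rTRS comparison rests on the labels alone.

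The LIF-responsive member genes differed in direction between the comparisons. Of the 14, in the order higher, lower and not called, there were 7, 3 and 4 in Rybp-/- (called among all genes tested, 45.5%), 6, 6 and 2 in shRybp (52.7%) and 4, 8 and 2 in the rTRS libraries labelled DOX (43.4%). The 26 genes of the list that were no member genes were at 12, 6 and 8, at 10, 5 and 11, and at 12, 8 and 6. The median log2 fold change of the 14 was 0.13, 0.09 and -0.39, against 0.00, 0.02 and 0.00 over all genes tested.

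In the feedback branch, Socs3 was at 68.8 and 73.3 CPM in Rybp+/+ and 89.1 and 89.1 CPM in Rybp-/-, higher by 0.33 on the log2 scale (SE 0.04, adjusted p = 7.63e-08, edgeR). In the libraries labelled DOX it was at 84.6 and 80.9 CPM against 284 and 249 CPM in NTC (-1.69, SE 0.07, adjusted p = 2.60e-09, edgeR). With shRybp it was at 275 and 275 CPM against 263 and 277 CPM and was not called (0.03). Socs2 fell with shRybp (-0.47, from 77.3 and 79.6 to 54.4 and 58.7 CPM) and in the libraries labelled DOX (-0.55). Lifr, the receptor, fell in the libraries labelled DOX from 73.8 and 83.1 to 28.3 and 31.1 CPM (-1.40, SE 0.09, adjusted p = 6.72e-08, edgeR). Its changes of -0.19 in Rybp-/- and -0.16 with shRybp were small, and the latter lost its call without shEV replicate 2 or shRybp replicate 2 (adjusted p = 0.0644 and 0.241).

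Among the pluripotency factors, Klf4 rose in Rybp-/- from 276 and 288 to 379 and 374 CPM (0.42, SE 0.03, adjusted p = 5.39e-13, edgeR) and fell in the libraries labelled DOX from 203 and 189 to 95.8 and 84.4 CPM (-1.12, SE 0.07, adjusted p = 1.13e-07, edgeR). Stat3 itself was higher by 0.11 in Rybp-/- (adjusted p = 0.00996, edgeR; 0.129 and 0.0709 without replicate 1 or 2 of Rybp-/-) and by 0.16 with shRybp (0.00825; 0.105 without shRybp replicate 2). Klf2 rose by 0.15 in Rybp-/-, and fell with shRybp from 1283 and 1872 to 790 and 629 CPM (-1.15, SE 0.11, adjusted p = 9.56e-08, edgeR). Pou5f1 was at 622 and 650 CPM in Rybp+/+ and 646 and 649 CPM in Rybp-/-, which was not called, and fell with shRybp (-0.66, from 1077 and 1097 to 680 and 698 CPM) and in the libraries labelled DOX (-0.58). Rcor2 fell with shRybp from 535 and 581 to 306 and 305 CPM (-0.87, SE 0.05, adjusted p = 2.23e-11, edgeR). Klf2, Pou5f1 and Rcor2 thus fell in the knockdown and not in the knockout, and these differences between the lines were not tested.

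Fos, Irf1, Pim1 and Stat3 were the 4 that were higher in the libraries labelled DOX. Fos, an immediate early gene, went from 5.82 and 6.21 to 32.7 and 35.6 CPM (2.50, SE 0.11, adjusted p = 3.49e-09, edgeR), and also rose in Rybp-/- (0.45) and with shRybp (1.18). Irf1 went from 18.5 and 19.0 to 80.0 and 77.5 CPM (2.07, SE 0.08, adjusted p = 1.07e-09, edgeR). Pim1 rose there by 0.65 and fell with shRybp by 0.60, while in Rybp-/- it was at 0.00. Bcl3, the gene of the third highest member, was not called in Rybp-/- (-0.06) and fell with shRybp from 153 and 175 to 77.3 and 74.1 CPM (-1.11, SE 0.06, adjusted p = 3.82e-11, edgeR) and in the libraries labelled DOX (-0.86).

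**Figure D4:**
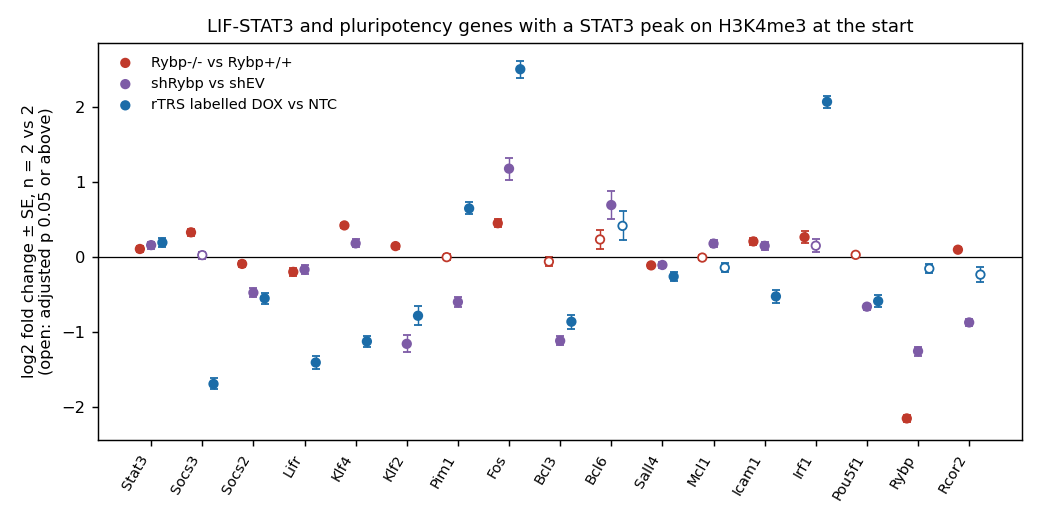
log2 fold change with its standard error (n = 2 against 2) of the 17 member genes of the LIF-STAT3 and pluripotency lists in Rybp-/- against Rybp+/+ (red), shRybp against shEV (purple) and rTRS libraries labelled DOX against NTC (blue); open circles were not called by edgeR. Socs3, Lifr and Klf4 lie below -1 and Fos and Irf1 above 2 in the rTRS comparison, and Rybp is the lowest gene in Rybp-/-.

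Over all member genes, 1521 of 1748 passed the filter on low counts in the knockout, and 833 of these (54.8%) were called at an adjusted p under 0.05, against 45.5% of all genes tested. Higher were 366 (24.1%, background 22.8%) and lower 467 (30.7%, background 22.7%). In the knockdown 970 of 1528 (63.5%, background 52.7%) were called, 517 higher (33.8%, background 26.8%) and 453 lower (29.6%, background 26.0%). In the rTRS comparison 744 of 1495 (49.8%, background 43.4%) were called, 457 higher (30.6%, background 23.0%) and 287 lower (19.2%, background 20.4%). The median log2 fold change of the member genes was -0.02, 0.05 and 0.07, against 0.00, 0.02 and 0.00 over all genes. The middle 50% of member genes lay between -0.23 and 0.22 in the knockout, between -0.25 and 0.55 in the knockdown and between -0.22 and 0.47 in the rTRS comparison. Calls past a 2-fold change were 92, 195 and 169 member genes, or 6.05%, 12.8% and 11.3%, against 7.84%, 12.6% and 12.0% of all genes. Past that size the shares of member genes were at or below 12.8% and lay near the background.

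The nearer comparison is with genes that have an H3K4me3 peak and no STAT3 peak at the start. Against these, member genes were lower more often in the knockout, by 6.07 percentage points (95% Newcombe interval 3.68 to 8.55), and by 4.65 points at equal CPM. The share of higher genes differed by 0.750 points (-1.46 to 3.08). In the knockdown the excess was on the other side, at 6.87 points (4.41 to 9.40) for higher genes and 1.13 points (-1.24 to 3.60) for lower genes, or 7.80 and -2.31 points at equal CPM, where the sign for lower genes turned. In the rTRS comparison it was 6.21 points (3.80 to 8.70) for higher genes and -1.62 points (-3.67 to 0.570) for lower genes, or 6.03 and -3.01 points at equal CPM. Genes are not replicates, and these intervals cover the counting of genes only. Of the member genes called in both the knockout and the knockdown, 374 of 567 (66.0%) had the same direction, against 67.7% of H3K4me3 genes without a STAT3 peak.

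In the knockout and the knockdown the direction of the calls differed between the mark classes of the H3K4me3 peak, among member genes and among other genes alike. A gene near H3K4me3 peaks of different classes was counted in each of them, so the classes share some genes. In the knockout, member genes with RING1B and no H3K27ac were higher in 33.5% and lower in 12.8% of 358 tested, and H3K4me3 genes of this class without a STAT3 peak in 37.1% and 10.7% of 2317. Member genes with H3K27ac and no RING1B were higher in 20.0% and lower in 37.5% (32.7 to 42.6) of 365, and those without a STAT3 peak in 19.7% and 26.2% (24.9 to 27.5) of 4575. With both marks the shares were 22.1% and 36.4% for members and 20.8% and 31.4% for the others. In the knockdown, 50.9% of member genes with RING1B and no H3K27ac were higher and 8.27% lower, close to the 48.9% and 6.62% of genes without a STAT3 peak. Those with H3K27ac and no RING1B were lower in 44.0% (39.0 to 49.2) against 36.8% (35.4 to 38.2). Those with both marks were higher in 32.0% and lower in 33.8%, against 27.0% and 32.8%. In the rTRS comparison the class with H3K27ac and no RING1B was lower in 25.4% against 24.6% and higher in 22.6% against 18.6%. The class with RING1B and no H3K27ac was higher in 28.9% and lower in 16.3% there, against 29.8% and 12.5%. The class with both marks was higher in 34.8% and lower in 18.0% there, against 28.6% and 21.5% without a STAT3 peak. The H3K27ac class held higher-expressed genes among the members (median 11.3 RPKM against 6.95 RPKM without a STAT3 peak), and the part of level in these shares was not tested.

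**Figure D5:**
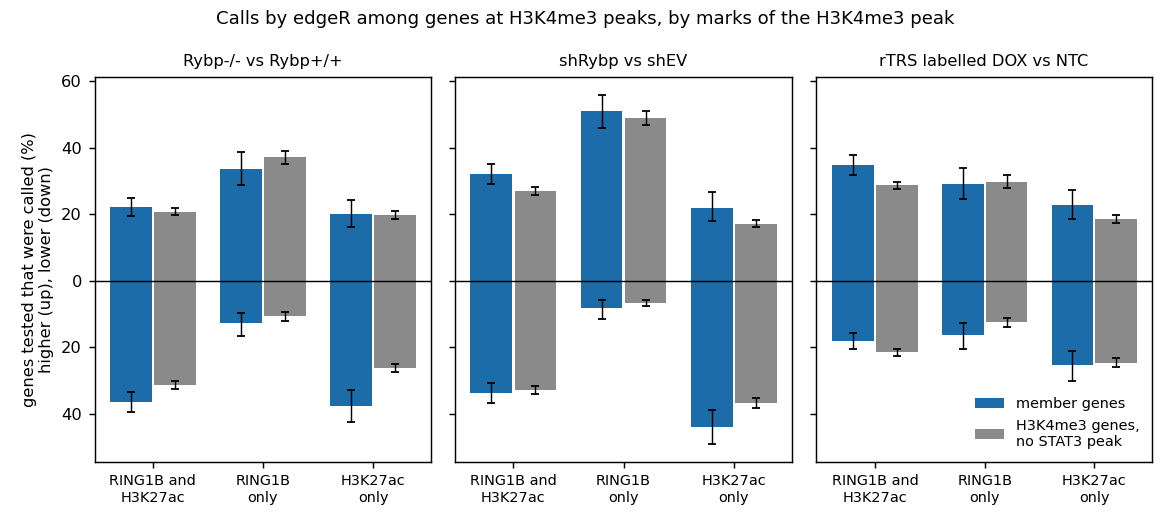
Percentage of tested genes called higher (above 0) or lower (below 0) by edgeR in the 3 RNA-seq comparisons. Member genes (blue) and H3K4me3 genes without a STAT3 peak (grey) are grouped by RING1B and H3K27ac overlap of the H3K4me3 peak. A gene near peaks of different classes is counted in each, and error bars are 95% Wilson intervals. In the knockout, 37.5% of member genes and 26.2% of the other genes with H3K27ac only are lower.

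Member genes with and without a recurring STAT3 peak had like shares of calls. In the knockout, 24.8% of member genes whose peak was in the Rybp-/- list were higher and 30.7% lower, and 23.8% and 30.7% of those whose peak was not. Genes at the 100 members of highest fold were higher in 29.9% (20.8 to 40.8) and lower in 14.3% (8.17 to 23.8) of 77 tested in the knockout, against 22.8% and 22.7% of all genes. The intervals hold both all-gene shares. The interval for lower genes lies below the 30.7% lower among all member genes in the knockout, and this difference was not tested. Among genes at the 100 members, 30.7% were lower in the knockdown (all genes 26.0%) and 24.7% in the rTRS comparison (all genes 20.4%). The difference between the comparisons was not tested.

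The largest rises among member genes in the knockout were those of Taf7l, Dazl, Ddx4, Oaf and Ddah1. Taf7l, a germ cell subunit of the TFIID complex, went from 1.56 and 2.17 to 10.9 and 11.2 CPM (2.57, SE 0.14, adjusted p = 1.33e-16, edgeR), and with shRybp from 3.90 and 4.45 to 23.0 and 21.7 CPM (2.42). Dazl, a germ cell RNA-binding protein, went from 9.45 and 8.90 to 27.0 and 26.9 CPM (1.56), and Ddx4, the germ cell helicase, from 18.6 and 18.2 to 54.2 and 52.3 CPM (1.54). Oaf and Ddah1, an enzyme that degrades methylarginines, rose by 1.52 and 1.43. The STAT3 peaks of these 5 genes had Rybp+/+ folds of 3.27 to 6.66. Only that of Oaf was in the Rybp-/- list, where 21.9% of all members recurred. After Rybp, the largest falls were those of Mapk12, a p38 kinase (-1.33), Jhdm1d, a histone demethylase (-1.02), Tnfaip8 (-1.0) and the sorting receptor Sort1 (-0.97). The peaks of Rybp, Mapk12 and Jhdm1d were in the Rybp-/- list, and those of Tnfaip8 and Sort1 were not.

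With shRybp, Egfr, the epidermal growth factor receptor, rose from 1.72 and 1.49 to 13.0 and 12.1 CPM (2.96, SE 0.16, adjusted p = 3.55e-11, edgeR), followed by the phospholipase Plch2 (2.72), the p53 target Perp (2.44), Taf7l and Gpr124 (2.37). Cdk2ap1, a cell cycle regulator, fell from 150 and 169 to 50.8 and 46.9 CPM (-1.71, SE 0.06, adjusted p = 2.14e-13, edgeR), and Ctdsp2, Anp32a and the SWI/SNF subunit Smarcd3 fell by 1.5, 1.34 and 1.31 on the log2 scale. Rybp was also among the 5 largest falls. Of all these genes, Gpr124 and Rybp had their STAT3 peak in the Rybp-/- list, where 21.9% of all members recurred. Cdk2ap1 and Anp32a had theirs in the DOX- list, where 24.6% of all members recurred.

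In the libraries labelled DOX, Fgf8, a growth factor of the gastrulating embryo, went from 0.392 and 0.149 to 12.7 and 9.15 CPM (5.34, SE 0.32, adjusted p = 4.04e-08, edgeR) and Thsd7a from 0.333 and 0.297 to 13.4 and 15.2 CPM (5.50, SE 0.21, adjusted p = 1.09e-09, edgeR). Trim67, the forkhead factor gene Foxi3 and the latrophilin gene Lphn2 rose by 4.31, 3.72 and 2.84. Inhbb, a subunit of activin B, fell from 89.3 and 83.9 to 8.91 and 8.70 CPM (-3.30, SE 0.09, adjusted p = 4.34e-11, edgeR), and Tet2, an enzyme that oxidises methylcytosine, from 82.9 and 94.6 to 21.8 and 22.9 CPM (-1.99). Enox1, the arginine methyltransferase gene Prmt8 and the adhesion receptor gene Bai1 fell by 2.59, 1.91 and 1.76.

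Markers of other cell types moved with these comparisons. The summed level of 6 ESC marker genes was 4154 to 4292 CPM in Rybp+/+ and 4623 to 4640 in Rybp-/-, 6341 to 6432 with shEV and 5636 to 5642 with shRybp, and 4281 to 4510 in NTC and 2792 to 2982 in the libraries labelled DOX. Mesoderm markers were at 11.9 to 13.7 CPM in NTC and 56.8 to 62.9 in the libraries labelled DOX, and at 16.5 to 19.4 with shEV and 13.8 to 14.1 with shRybp, where Eomes was lower. In Rybp+/+ and Rybp-/- they were at 4.26 to 4.73 and 4.70 to 4.87 CPM. The levels of fibroblast feeder markers were 49.9 to 51.3 CPM in Rybp+/+ and 99.7 to 104 in Rybp-/-. Feeder markers were also at 18.6 to 18.8 CPM with shEV and 30.6 to 31.9 with shRybp. Primitive endoderm markers were at 9.03 to 12.2 CPM with shEV and 24.5 to 27.0 with shRybp. Gata6, Gata4, Sox17, Dab2 and Foxa2 were all called higher there. The sum was 6.21 to 7.01 in Rybp+/+ and 10.6 to 11.6 in Rybp-/-, where Dab2 and Gata4 were higher. Gata6, Sox17 and Foxa2 were not called in Rybp-/- (log2 fold change -0.76, -0.01 and 0.65). It was 5.98 to 7.77 in NTC and 19.6 to 20.7 in the libraries labelled DOX. Dab2 carried this rise, from 5.64 and 3.90 to 18.8 and 17.8 CPM. Gata6, Gata4 and Sox17 were not called in that comparison (-0.50, -0.02 and -0.77), and Foxa2 was not tested. The 2 neural markers summed to 20.0 to 21.3 CPM with shEV and 44.0 to 48.7 with shRybp, and to 14.9 to 18.4 in NTC and 45.6 to 48.3 in the libraries labelled DOX. Nes carried these sums and was higher in both, while Pax6 was lower in both (log2 fold change -0.95 and -2.06). Trophectoderm markers were at 0.669 to 0.842 CPM in NTC and 9.69 to 10.3 in the libraries labelled DOX, at 0.0748 to 0.0890 in Rybp+/+ and 0.609 to 0.905 in Rybp-/-, and at 0.911 to 1.44 with shEV and 2.59 to 3.00 with shRybp. Their part in the member genes' changes was not tested, and in bulk samples fewer cells of a type and less RNA per cell cannot be told apart.

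Member genes were counted in 7 gene families, with no test of their shares. Hox cluster genes were members in 8 of 40 cases (20.0%), and the other 32 had an H3K4me3 peak and no STAT3 peak. The share of member genes was 7.02% of protein-coding genes and 9.93% of genes with an H3K4me3 peak. Histone genes of the replication-dependent clusters were members in 0 of 67 cases, and 55 had an H3K4me3 peak and no STAT3 peak. Cytosolic ribosomal protein genes were members in 5 of 149 cases, mitochondrial ribosomal protein genes in 5 of 77, respiratory complex genes in 2 of 95, proteasome genes in 2 of 52 and spliceosome genes in 3 of 31. In the knockdown, 4 of the 5 mitochondrial ribosomal, 3 of the 5 cytosolic ribosomal and 3 of the 3 spliceosome member genes were lower and 0 higher (lower among all genes tested, 26.0%). The other genes of these families were lower in 46 of 70, 64 of 109 and 19 of 28 cases. In the knockout, 1 mitochondrial and 1 cytosolic ribosomal member gene were higher and 0 lower, and 1 spliceosome member gene was lower and 0 higher. Of the other mitochondrial ribosomal genes, 21 of 70 were higher and 7 lower. Other cytosolic ribosomal genes were higher in 11 and lower in 19 of 107 cases, and other spliceosome genes in 9 and 5 of 28. Of the 5 Hox member genes tested in the knockout, 2 were higher and 0 lower, with a median of 0.33 (all genes tested 22.8% higher and 22.7% lower), and of the 12 other Hox genes 6 were higher and 0 lower, with a median of 1.12. In the knockdown 2 of 5 Hox member genes were higher and 0 lower, against 4 and 0 of the 16 other Hox genes and 26.8% and 26.0% of all genes tested. In the rTRS comparison 1 of 2 was higher and 1 lower, against 1 and 0 of the 11 others and 23.0% and 20.4% of all genes tested.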

How the data were processed

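Per the labels, ChIP-seq and RNA-seq were made from mouse ESCs, with mm9 and the tools Trim Galore, STAR and HTSeq in the submitters' processing notes. The study's methods name Bowtie2 and MACS2 for ChIP-seq. How the STAT3 and RING1B peaks were called, and to which depth reads had been sampled, is not given in the sources used here. The authors deposited narrow peak lists (STAT3, H3K4me3, H3K27ac, WDR5) and broad peak lists (RING1B), in which the authors give a fold enrichment over input, a ratio, and a −log10 q for each peak. The authors deposited gene tables of raw read counts, with totals on genes of 39.0 to 81.0 (in units of 1e6 counts) per library. The name of 1 of the 2 columns labelled DOX in the rTRS table lacks the line's prefix, and it was taken as rTRS from its title. Rows that name no gene (13.7 to 26.5% of reads) were left out.

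Duplicate intervals were merged, and overlap meant at least 1 bp. Shares have 95% Wilson intervals and differences Newcombe intervals (counting error only); a count of 0 allows 3 counts. Values at equal width, GC content, fold or CPM weight 10 groups of the comparison set by the members' distribution. Gene starts, exons and sequences came from the NCBIM37 annotation and genome (pysam 0.24.0, Python 3.11.15, scipy 1.17.1). Counts were tested with edgeR 4.0.16 (R 4.3.3; filterByExpr, TMM, quasi-likelihood test, Benjamini-Hochberg adjustment over all genes tested), and each SE belongs to a log2 fold change; the code was tested on simulated data. RPKM used exon length. Nothing says that the replicates were separate cultures, so p-values measure only the spread between these samples.

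Named regions were the 12 members of highest fold, the 5 highest absent from the Rybp-/- list, and members within 1 kb of a gene of the LIF-STAT3 or pluripotency list; named genes were the member genes of both lists and the 5 largest rises and falls per comparison at a mean CPM of at least 5. The values of 2 of these regions are not reported here. The members and lists were chosen with earlier results of these data known. DESeq2 1.42.0, no filter, a replicate block, left-out libraries and other overlap and distance rules were alternatives. Tables of other RNA-seq experiments of the series were not used here, and other STAT3 libraries were not analysed here.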

Additional observations from a re-analysis of the deposited data

Results flagged for a closer look

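Klf2 and Rcor2, both member genes, moved in opposite directions in the knockout and the knockdown, with every Rybp-/- library above every Rybp+/+ library and every shRybp library below every shEV library. The log2 fold change of Klf2 was 0.15 in Rybp-/- and -1.15 with shRybp, and that of Rcor2 0.10 and -0.87. The difference between the comparisons was not tested. The knockout call of Rcor2 was lost without Rybp+/+ replicate 1 or Rybp-/- replicate 1 (adjusted p = 0.0769 and 0.339, edgeR).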

How the results depend on the processing

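Depth limits the peak results: the reads behind the STAT3 and RING1B lists are unknown, each Rybp genotype had 1 STAT3 library, and a peak missing from a list may be a peak below its threshold. Under a −log10 q of at least 5 there were 748 members among 844 STAT3 peaks. With 50% of the member covered, the shares were 17.7% (Rybp-/- STAT3), 18.2% (DOX-), 91.7% (DOX+), 59.2% (WDR5), 57.8% (H3K27ac) and 76.7% (RING1B shEV). By the summit base they were 18.0%, 18.8%, 91.1%, 59.4%, 57.8% and 76.5%. With a −log10 q of at least 5 they were 13.6% and 14.0% for Rybp-/- and DOX-, 69.0% for WDR5 and 65% for H3K27ac. With equal numbers of peaks, over 1516 members, they were 17.2% for DOX- and 20.6% for DOX+. Asking for a change above 2-fold left 92 (knockout), 169 (rTRS) and 195 (knockdown) member genes called, and asking for the gene start inside the member 471, 418 and 536. Left-out libraries gave 661 to 797, 648 to 698 and 796 to 941 called; the sample left alone in its group was assumed to vary like the others. The replicate block gave 834, 905 and 1004, DESeq2 700, 684 and 840, no filter 732, 776 and 969, and a distance of 5 kb 933, 841 and 1084. The block lost 0 of the calls of named genes. Replicate numbers did not pair the libraries (correlations of -0.021, 0.069 and 0.021). Of 553 alternative values for 79 named gene results, 516 kept direction and side of the threshold, 24 lost the call (21 of them with a library left out), 7 gained one and 6 changed sign. The 6 were never called: Pim1 in the knockout (-0.0010 with DESeq2, -0.0045 with no filter, -0.028 without Rybp+/+ replicate 1 and -0.0055 without Rybp-/- replicate 2), Socs3 in the knockdown (-0.016 without shEV replicate 1, up to 0.059 without another library) and Pou5f1 in the knockout (-0.0032 without Rybp+/+ replicate 1, up to 0.059 without another library). The causes were not tested.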
